A study of Mus musculus with 4 samples.

Results

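The HoxB cluster is a run of 10 homeobox genes, Hoxb1 to Hoxb9 and Hoxb13, on mouse chromosome 11 between 96194316 and 96368254 (mm10, RefSeq spans). HOXA5-FLAG peaks were taken for the cluster when their summit lay inside, or within 100 kb of, the span of any of these genes. All 10 genes were found among 21779 protein-coding genes. Their window of 374 kb held 4 of 4289 replicate 1 peaks and 1 of 2832 replicate 2 peaks, and 1 of the 2175 peaks shared by both replicates. The shared peak lay inside Hoxb2, and the 3 others, inside Hoxb3, inside Hoxb5 and beyond Hoxb1, were called in replicate 1 alone.

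The peaks come from lungs of Hoxa5FLAG/FLAG embryos at E15.5, in which both copies of the endogenous Hoxa5 gene encode HOXA5 with a FLAG epitope, a short tag that an antibody can pull down. All 4 libraries, 2 FLAG immunoprecipitates and 2 inputs, carry this genotype, although the sample titles carry the abbreviation wt. Peaks came from the 2 immunoprecipitates, and the inputs were not analysed here. None of the 4 libraries was from untagged lung, so signal that does not depend on the tag could not be told apart. Separate litters or pools are not stated for the replicates, so their likeness may be technical in part, and names inside the replicate 2 file bear a different replicate number from its label, which was followed. Whole lung is a mixture of cell types, and a peak list does not show in which of them a site was bound or whether the nearby gene was expressed, so the tissue label was not checked against marker genes.

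Hox genes encode homeodomain transcription factors that give embryonic tissues their position along the head to tail axis. Within a cluster they lie in the order in which they are used along that axis, with the low-numbered genes active first and farthest forward, and genes of the same number in different clusters are paralogues. Hox proteins are known to regulate their own and each other's genes, often together with the TALE cofactors PBX and MEIS. Hoxb5 is the HoxB paralogue of Hoxa5, and both genes are known from mouse mutants to act in lung formation.

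Hoxb2, which patterns the hindbrain and its motor neurons, held the highest peak of the window in replicate 1 and the one peak of replicate 2. In replicate 1 this peak covered 96351735 to 96352104 (370 bp), with a fold enrichment of 8.04 at the summit and a −log10 q of 49.2. Fold enrichment is the peak caller's ratio of signal to local background, and −log10 q is its measure of confidence, where larger is surer. Both are the authors' values for each peak within its own list. In replicate 2 the peak covered 96351827 to 96352098 (272 bp), with a fold enrichment of 3.80 and a −log10 q of 10.3. The whole replicate 2 peak lay within the replicate 1 peak and made up 73.5% of its length, and the summits were 10 bp apart. Both summits were just inside the gene, 285 bp and 295 bp from the lower-coordinate end of the Hoxb2 span. This end is where transcription would begin on the plus strand, which the promoter table gives for Hoxb1, Hoxb4 and Hoxb8. The long noncoding RNA gene Hoxb3os (96343034 to 96353394) also spans these summits, so the position alone does not assign the peak to one of the genes. Within its list the Hoxb2 peak was high in replicate 1, where 8.84% of peaks had an equal or higher fold. It was closer to the middle in replicate 2, where 36.1% did.

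Hoxb3, which acts with its paralogues in the hindbrain and the pharyngeal region, had a summit inside its 40830 bp span in replicate 1 alone. The peak covered 96309415 to 96309755 (341 bp) and had a fold of 4.70 and a −log10 q of 18.3, above the list medians of 3.87 and 13.0. Its summit lay 2471 bp from the nearer end of Hoxb3, between Hoxb5 and Hoxb4, and 7.59 kb from Mir10a, the microRNA gene within this part of the cluster. The Hoxb3 span also covers Hoxb4, a gene known for its effect on blood stem cells, whose own span held no summit in either list.

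Hoxb5 had a peak in replicate 1 alone, at 96303361 to 96303787 (427 bp). The peak took in the lower-coordinate end of the gene, 96303512, with its summit 126 bp inside. This was the lowest of the replicate 1 peaks in the window, with a fold of 2.89 and a −log10 q of 5.27, and 79.7% of replicate 1 peaks had an equal or higher fold. The noncoding gene Hoxb5os covers the same bases. Hoxa5 itself, on chromosome 6, had a peak in the same list, with the summit 138 bp inside the higher-coordinate end of the gene, a fold of 4.57 and a −log10 q of 18.0. The annotated spans of Hoxa3 and Hoxaas3 cover that summit too. This peak also had no partner in replicate 2.

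The last replicate 1 peak lay outside the cluster, on the Hoxb1 side. It covered 96407574 to 96407885 (312 bp), with a fold of 3.49 and a −log10 q of 10.0, and its summit was 39.5 kb from the end of Hoxb1. No annotated gene held it. The nearest gene boundary was that of the pseudogene Gm11531 at 15038 bp, and Skap1, which encodes an adaptor protein of T cell signalling and is the next coding gene on that side, began 56.8 kb away. None of the HoxB peaks was long: they measured 312 to 427 bp in replicate 1 and 272 bp in replicate 2, beside list medians of 414 and 436.5 bp.

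**Figure D1:**
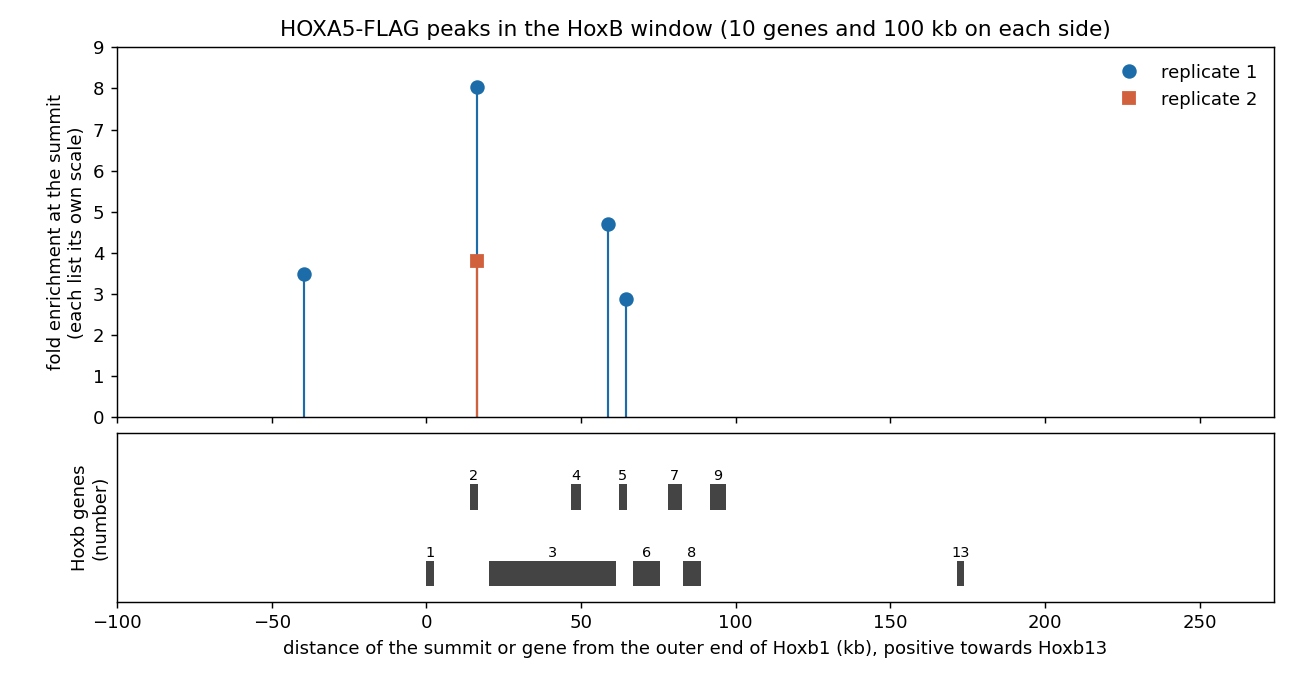
HOXA5-FLAG peaks along the HoxB window. The upper panel gives each summit's fold enrichment (linear, each list on its own scale) against its distance in kb from the outer end of Hoxb1, with circles for replicate 1 and squares for replicate 2, and the lower panel shows the spans of the 10 genes by number. Both replicates have a summit in Hoxb2 (8.04 and 3.80), and replicate 1 alone has the summits in Hoxb3 (4.70), in Hoxb5 (2.89) and beyond Hoxb1 (3.49).

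**Figure D2:**
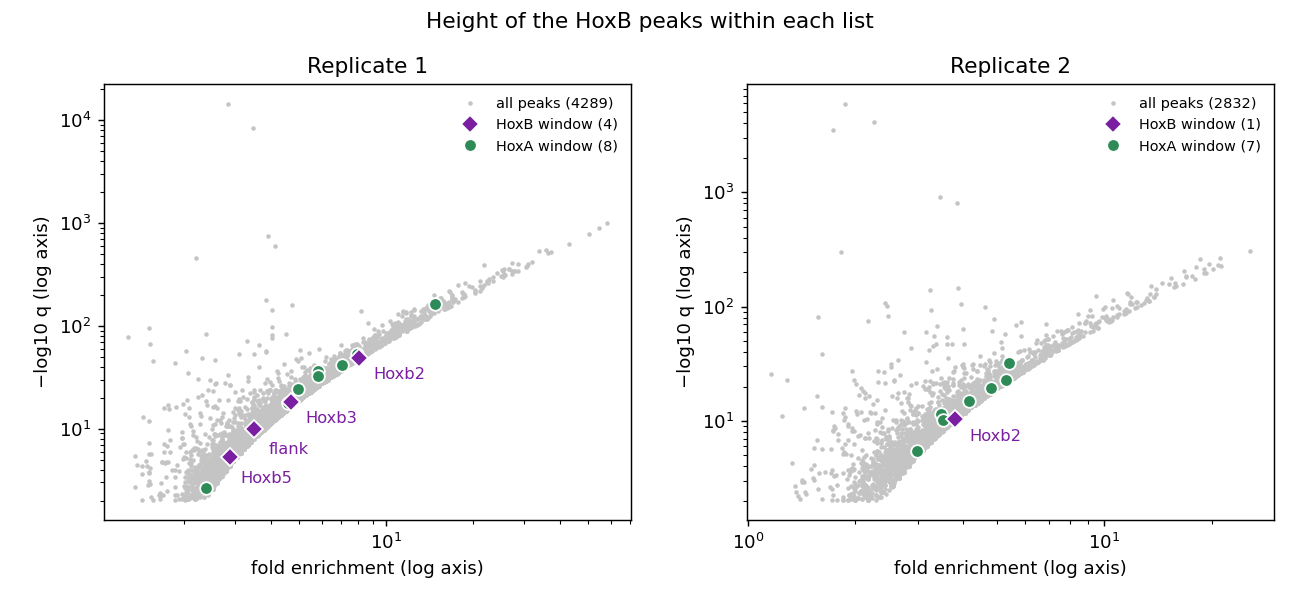
Fold enrichment against −log10 q, both on log axes, for all peaks of replicate 1 (left) and replicate 2 (right), with the peaks of the HoxB window as diamonds and those of the HoxA window as circles. The Hoxb2 peak is at 8.04 and 49.2 in replicate 1 and at 3.80 and 10.3 in replicate 2, inside the main band of peaks in both lists.

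The HoxB genes differed in how far they lay from a peak. In replicate 1, summits lay inside Hoxb2, Hoxb3 and Hoxb5, and the nearest summit was 2.07 kb from Hoxb6 and 8.70 kb from Hoxb4. It was 13.5 kb from Hoxb7, which is known from its activity in the ureteric bud of the kidney, and 13.8 kb from Hoxb1, the gene that specifies a hindbrain segment and the facial nerve. Hoxb8, studied in microglia and myeloid cells, was 18.3 kb away and Hoxb9, which patterns the ribs and mammary gland, 27.0 kb. Hoxb13, which acts at the tail end of the embryo and in the prostate and is set apart from the rest of the cluster, was 107 kb from a summit in replicate 1 and 155 kb in replicate 2. It was the one member with no peak inside the limit of 100 kb in either list. In replicate 2 the Hoxb2 summit was the nearest for all 10 genes. It was 13.8 kb from Hoxb1 on one side, and on the other the distances were 4.0 kb for Hoxb3, 30.3 kb for Hoxb4 and 45.8 kb for Hoxb5, and 50.4 to 75.3 kb from Hoxb6 to Hoxb9.

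**Figure D3:**
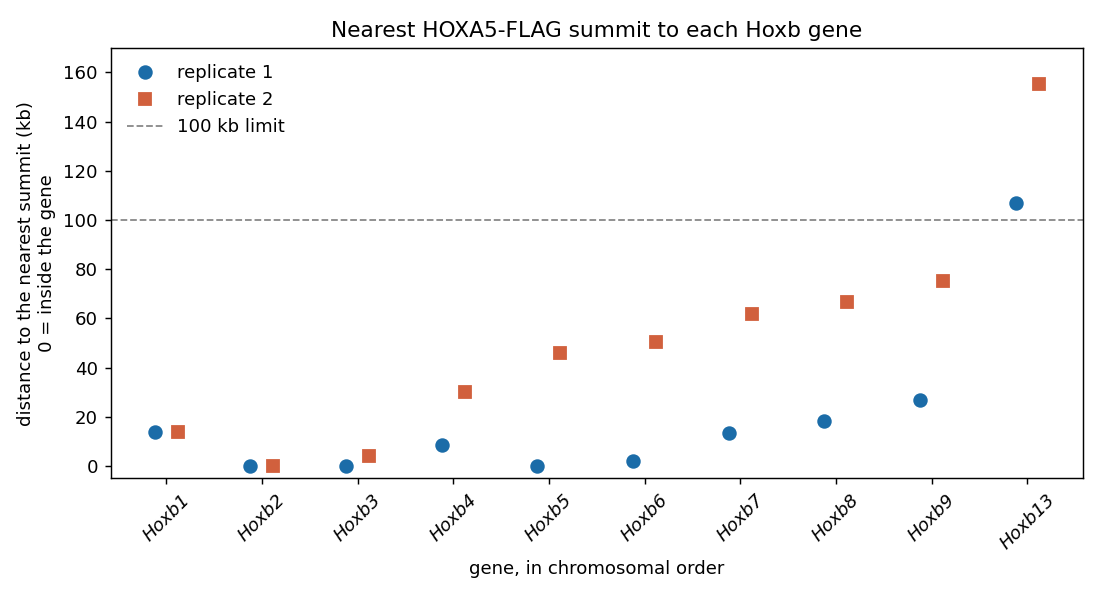
Distance in kb from each Hoxb gene to the nearest peak summit (0 means inside the gene), with circles for replicate 1, squares for replicate 2 and a dashed line at the 100 kb limit. Both replicates reach 0 at Hoxb2, replicate 1 alone at Hoxb3 and Hoxb5, and Hoxb13 lies above the line at 107 and 155 kb.

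The number of members near a peak was set beside all protein-coding genes. With the summit inside or within 100 kb, 9 of 10 HoxB genes had a replicate 1 peak, against 26.0% of all coding genes. A replicate 2 peak was near 9 of 10, against 18.4%, and a shared peak near 9 of 10, against 14.7%. These 9 genes are neighbours and are counted on the same peaks, since the single Hoxb2 peak gives all 9 their shared peak. Narrower limits, which do not let 1 peak serve the whole cluster, gave smaller counts. At 10 kb neighbours still shared peaks, and the Hoxb2 peak gave both Hoxb2 and Hoxb3 their shared peak. Within 10 kb, 5 of 10 members had a replicate 1 peak, against 7.93% of coding genes, 2 had a replicate 2 peak, against 5.53%, and 2 a shared peak, against 4.27%. Of 10 members, 3 held a replicate 1 summit inside the gene, against 5.79% of coding genes. A replicate 2 summit lay inside 1 of 10, against 4.18%, and a shared one inside 1 of 10, against 3.25%. The genes had a median of 3 replicate 1 peaks within 100 kb, against a median of 0 over all coding genes. At least 3 such peaks were found for 9 of 10 members, against 1.97%, and all 4 for 4 members, against 0.776% of coding genes with at least that many. These counts carry no test, because neighbouring genes are not independent.

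Promoter sequence was available only for members that held no summit. RefSeq promoter windows (GRCm38.p6, the assembly of mm10) were matched for 3 of the 10 members, Hoxb1, Hoxb4 and Hoxb8, and none of them overlapped a peak. The edge of the nearest peak in either list was 13.4 kb from the Hoxb1 window and 8.26 kb from the Hoxb4 window. Hoxb1 is shown because its upstream region is the textbook case of a Hox autoregulatory element, with sites for HOX and PBX proteins, and Hoxb4 is shown as the nearest such window to the Hoxb3 peak. Each run is the first 250 bases of the promoter window, on the plus strand, at chr11:96365508-96365757 for Hoxb1 and chr11:96318017-96318266 for Hoxb4. The Hoxb4 run ends just before the gene's span, and the last 12 bases of the Hoxb1 run lie within it. Capitals mark matches on either strand to TAAT, the homeodomain core, or to TGATNNAT, the joint HOX and PBX motif.
Hoxb1: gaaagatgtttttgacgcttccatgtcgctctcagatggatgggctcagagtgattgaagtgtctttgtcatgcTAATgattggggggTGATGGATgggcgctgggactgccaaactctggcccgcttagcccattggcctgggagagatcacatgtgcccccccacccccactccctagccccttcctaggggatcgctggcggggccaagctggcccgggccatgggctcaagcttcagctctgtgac
Hoxb4: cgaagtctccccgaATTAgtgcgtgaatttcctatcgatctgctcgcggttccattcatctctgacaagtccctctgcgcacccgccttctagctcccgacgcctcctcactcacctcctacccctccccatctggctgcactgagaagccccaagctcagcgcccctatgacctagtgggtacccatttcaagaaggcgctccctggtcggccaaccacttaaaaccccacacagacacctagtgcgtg

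The Hoxb1 window held 1 match to TAAT and 1 to TGATNNAT, which did not overlap, and the Hoxb4 window held 1 to TAAT. The Hoxb8 window, 21.5 kb from the nearest peak edge in replicate 1 and 69.9 kb in replicate 2, held 2 matches to TAAT and 1 to TGATNNAT. It is not printed, because it lies inside the annotated span of the gene. Among 32817 such windows, 54.9% held TAAT and 7.69% held TGATNNAT. The MEIS motif TGACAG, found in 15.9% of windows, and the joint PBX and MEIS motif TGATTGAC, found in 0.692%, had no match in any of the 3. A match is only a string of letters. The Hoxb1 and Hoxb8 windows held the joint HOX and PBX motif and had no HOXA5-FLAG peak in either lung list. No window was available for Hoxb2, Hoxb3 or Hoxb5, which held the summits, and no peak sequence was read. These windows therefore cannot show whether motif and peak go together.

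Sharing between the replicates was compared with the rest of each list. Neither difference passed, but with 4 and 1 HoxB peaks neither test could have passed. Of the 4 replicate 1 peaks, 1 had a partner in replicate 2 (25.0%, 95% exact binomial interval 0.631 to 80.6), against 2194 of the 4285 other replicate 1 peaks (51.2%, 49.7 to 52.7). Fisher's exact test, two-sided, gave p = 0.363 (adjusted p = 0.727 over 2 lists), and an interval this wide cannot show a difference of that size. With 4 HoxB peaks this test could not pass however many of them had a partner, so no conclusion is drawn from it. The 1 replicate 2 peak had a partner, as did 2196 of the other 2831 (77.6%; Fisher's exact p = 1, adjusted p = 1). With 1 HoxB peak this test could not pass whichever way it fell. Over the whole lists the shares were the same to that precision, 51.2% and 77.6%. How often replicate 1 peaks of like height had a partner was read from the 200 peaks closest in fold to each HoxB peak. The share was 83.0% around the Hoxb2 peak, 38.0% around the Hoxb3 peak, 38.5% around the Hoxb5 peak and 43.5% around the flanking peak. For the 200 peaks closest in −log10 q the share was 83.0%, 47.5%, 37.5% and 40.5% in the same order. Among all replicate 1 peaks of at least the same fold it was 94.5% for Hoxb2, 66.5% for Hoxb3, 51.7% for Hoxb5 and 55.9% for the flanking peak. From the unshared peaks to the nearest replicate 2 summit it was 48.3 kb for Hoxb5, 42.4 kb for Hoxb3 and 55.8 kb for the flanking peak, and in each case that summit was the one in Hoxb2. The lists hold only peaks past a threshold, so signal below it at these places in replicate 2 cannot be seen. The read depth is unknown, and its part in the missing partners was not tested.

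The 4 Hox clusters were compared by their peaks in windows made the same way. HoxB stood between HoxA, which had more peaks, and HoxC and HoxD, which had none in either list. In replicate 1 there were 4 peaks in the HoxB window and 8 in the HoxA window, in replicate 2 there were 1 and 7, and of shared peaks 1 and 7. Per length this was 10.7 peaks per Mb in HoxB and 26.2 in HoxA for replicate 1, and 2.67 and 22.9 for both replicate 2 and shared peaks. Over the annotated parts of all chromosomes the lists averaged 1.59 replicate 1 peaks, 1.05 replicate 2 peaks and 0.806 shared peaks per Mb. The density of shared peaks was 0.117 times that of HoxA (exact binomial test given the window lengths, two-sided, p = 0.0264), which did not pass after adjustment over 9 tests (adjusted p = 0.119). The replicate 2 peaks gave the same values. In replicate 1 the ratio to HoxA was 0.409 (exact binomial p = 0.154, adjusted p = 0.277). Against HoxC and HoxD, with 4 replicate 1 peaks in HoxB and 0 in each of them, the exact binomial p was 0.13 and 0.135 (adjusted p = 0.277 for both), and with 1 peak against 0 in replicate 2 or among shared peaks it was 1. The test treats peaks as independent. None of the 9 comparisons passed, and with counts this small differences of several peaks go undetected. Those against HoxC and HoxD could not pass, because these windows held no peak and HoxB at most 4. The comparisons of shared peaks repeated the replicate 2 counts, so the 9 are not separate results.

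The positions of peaks in HoxB and HoxA were set side by side. In HoxB 3 of the 4 replicate 1 summits were inside the cluster, as were 7 of 8 in HoxA. Paralogues of the same number held a shared summit in both clusters at Hoxb2 and Hoxa2. The Hoxb2 peak had folds of 8.04 and 3.80, and the Hoxa2 peak 5.84 and 4.79. Hoxb3 held a replicate 1 summit without a partner, whereas Hoxa3 held shared ones, among them one with folds of 7.92 in replicate 1 and 4.17 in replicate 2. No summit lay inside any gene numbered above Hoxb5 in HoxB or above Hoxa5 in HoxA. The HoxB and HoxA windows each had 1 replicate 1 peak in the flank beyond its lowest-numbered gene. The one in HoxB had a fold of 3.49 at 39.5 kb from Hoxb1 and no partner. That in HoxA had folds of 14.8 in replicate 1 and 5.40 in replicate 2 at 68.8 kb from the nearest HoxA gene. These likenesses were seen in the data and carry no test.

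**Figure D4:**
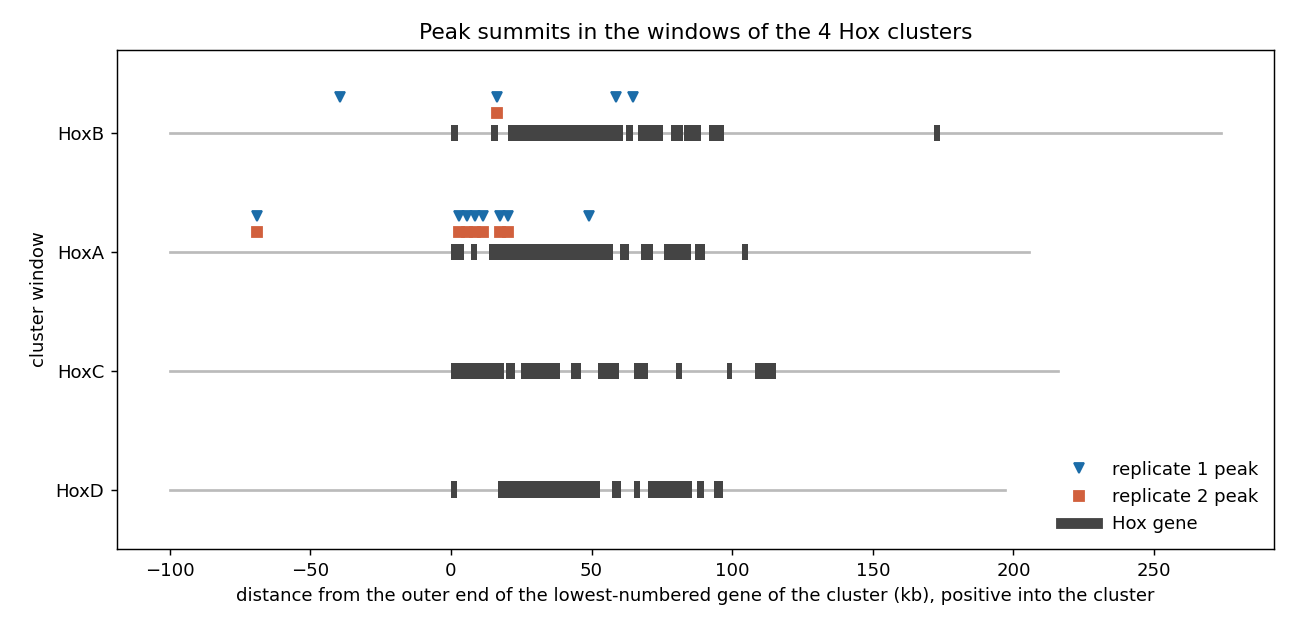
Peak summits in the windows of HoxB, HoxA, HoxC and HoxD, placed by distance in kb from the outer end of the lowest-numbered gene of each cluster, with triangles for replicate 1, squares for replicate 2, dark bars for genes and grey lines for the windows. HoxB has 4 triangles and 1 square, HoxA has 8 and 7, and HoxC and HoxD have none.

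The limit of 100 kb kept out peaks on the Hoxb1 side. The first replicate 1 peak beyond it was 137 kb from Hoxb1 (96504619 to 96505110, fold 5.68, −log10 q 28.8), and the first replicate 2 peak was 164 kb away (96531830 to 96532238, 3.06 and 6.15). Both lay inside Skap1. On the Hoxb13 side the next peaks were 528 kb away in replicate 1 and 1810 kb away in replicate 2. HoxC and HoxD also had their nearest peaks outside the limit. For HoxC the nearest was at 132 kb in replicate 1, with a fold of 4.84 and no partner, and at 269 kb in replicate 2. For HoxD it was a shared peak at 135 kb in both lists, where the folds were 5.43 and 4.15.

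The TALE cofactor genes, whose products bind DNA beside HOX proteins, were set beside HoxB as the partner family. Of 9 genes, 5 had a replicate 1 peak inside or within 100 kb, 3 a replicate 2 peak and 3 a shared peak, among them Pbx3 and Meis1. Over all coding genes these shares were 26.0%, 18.4% and 14.7%. The HoxB counts were 9 of 10 in each list, resting on fewer separate peaks. The highest fold within 100 kb of a cofactor gene was 14.9 in replicate 1 and 13.1 in replicate 2, both at Pbx3, against 8.04 and 3.80 in the HoxB window.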

How the data were processed

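Chromatin was cross-linked in 1% formaldehyde for 10 min, sheared to 200 to 500 bp and, at 20 µg, incubated with a FLAG antibody, per the labels' protocols. The submitters' processing notes name Bowtie2 2.5.2, MACS3 3.0.1, bedtools 2.31.0, and the mm10 build, with FastQC, Trim Galore, SAMtools and deepTools. Not given in the sources used here are settings, the control of the peak caller and any region filter. The authors deposited 1 peak list per immunoprecipitate. Its columns hold a fold enrichment (a ratio), a −log10 p and a −log10 q at the summit, all deposited values, and a deposited score that was not used. The lists hold no counts, so depth is unknown.

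A summit was the start plus the offset in the list, written 1-based. Peaks of the 2 lists overlapping by at least 1 bp were shared, and chains were counted once. Genes came from a RefSeq table of GRCm38.p6 without strand or exons, of which 49603 genes were used, so exonic and intronic summits could not be separated. Genes named are the 10 members, genes holding or nearest to a window peak, Hox genes of other clusters at a shared peak, cofactor genes with one, and Hoxa5. Not every gene so chosen is reported here. Skap1 was added after its values were seen. Members, lists and tests were chosen with earlier results of these data known. Functions were tested on simulated data. Python 3.11.15, pandas 2.3.3, SciPy 1.17.1 and matplotlib 3.10.9 were used. Alternatives were distance, threshold, peak length, the overlap rule and leaving out a replicate.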

Additional observations from a re-analysis of the deposited data

How the results depend on the processing

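The counts of 4, 1 and 1 peaks in the HoxB window (replicate 1, replicate 2, shared) stayed within 1.5 times under limits of 50 kb, 10 kb and 0 kb, with any base of a peak counted, with a −log10 q of at least 5 and with peaks of at most 1000 bp. The shared count also did so with 50% reciprocal overlap and with summits within 100 bp. Leaving out a replicate gave 1 to 4 peaks, the 4 being replicate 1 alone. The 9 HoxB genes with a shared peak fell to 5 at 50 kb and to 2 at 10 kb, where fewer genes reach the Hoxb2 peak. None of the 48 alternatives of the density tests passed. The 16 against HoxA kept their direction (exact binomial, adjusted p from 0.119 to 0.46). The 32 against HoxC and HoxD could not change direction or pass, because those windows held no peak and HoxB at most 4. Leaving out a replicate repeated the counts of 1 list alone. The overlap rules were added for the density tests after seeing the data. The 12 alternatives of the partner shares also kept their direction (Fisher's exact test, adjusted p from 0.727 to 1). Those of replicate 1 rested on at most 4 HoxB peaks, with which the main test could not pass. Those of replicate 2 could not reverse or pass, because its 1 HoxB peak had a partner in each. No paired analysis was possible because the 2 peak lists form 1 group. The depth of the lists is unknown, and its effect on these counts was not tested.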

Other observations

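Skap1, the coding gene next to HoxB, was looked at after the peaks beyond the limit were seen, as was Skap2, its paralogue next to HoxA. Skap1 (chromosome 11, 96464570 to 96759622) held 5 replicate 1 summits with folds of 2.63 to 5.68 and 2 replicate 2 summits with folds of 3.06 and 4.03, which made 2 shared peaks at 164 and 290 kb from Hoxb1. Skap2 held 4 replicate 1 summits with folds of 5.06 to 10.5 and 3 replicate 2 summits with folds of 3.39 to 7.06, which made 3 shared peaks. The highest Skap1 peak of replicate 1, at 5.68-fold, had no partner in replicate 2. Skap1 starts 96.3 kb from Hoxb1 and Skap2 lies 143 kb from the nearest HoxA gene, and the genes are 295 and 153 kb long. No test was made.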
